A study of Homo sapiens with 19 samples.

Results

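The dense clusters of EP400 peaks described here are 79 of the 2885 1-Mb windows of the genome that held a peak start of any list, 2.74% of them, and they held 3394 of the 18048 EP400 peaks. That is 18.8% of the peaks (95% Wilson interval 18.2 to 19.4%). Windows were fixed on each chromosome (1 to 1000000, 1000001 to 2000000 and so on), and a window was dense when it held 30 or more EP400 peak starts. The windows were thus chosen by their count of EP400 peaks, which is given below as a description only. The samples are U2OS cells, an established human osteosarcoma line, profiled by chromatin immunoprecipitation (ChIP) and RNA sequencing. EP400 was immunoprecipitated in 3 samples, which form 1 list and whose labels name no siRNA. Pol II, MED26 (a subunit of Mediator), and H3.3 and H2AZ, which are variants of histones, were profiled in mock cells, which received siRNA against GFP, and in cells that received EP400 siRNA, each harvested 72 hr after transfection. The histone marks H3K18ac and H3K4me1 were profiled in mock cells only, and RNA in both conditions. Each antibody and condition had 1 library, so differences between conditions cannot be set against a spread of replicates and no p-value is given. The 4 input samples were not analysed here. All cells come from 1 line, and EP400 siRNA leaves the gene in place and part of its RNA.

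EP400 is the motor ATPase of the TIP60-EP400 complex, which exchanges histones in nucleosomes and carries the acetyltransferase KAT5. The variant H2AZ marks nucleosomes next to active and poised start sites, and H3.3 is laid down outside of DNA replication where nucleosomes turn over. H3K4me1 is a mark of enhancers, H3K18ac of active enhancers and promoters, and MED26 is the Mediator subunit that links Mediator to elongating Pol II.

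The promoters below belong to genes that the results turn on and do not stand for the sequence of the dense windows. EIF3B, PPIA, SRSF1 and CLTC are the genes with a start at 4 of the 6 widest EP400 peaks of the dense windows. PCDH7 is the gene of the window with the most EP400 peaks, and CXCL8 is the gene of the dense windows with the highest ratio of RNA after EP400 siRNA to mock. Each sequence is RefSeq's, on GRCh38.p14, 300 bases long and mostly upstream of the gene's start, written 5′ to 3′ on the gene's strand. EIF3B is chr7:2354577-2354876 (+), PPIA chr7:44796431-44796730 (+), SRSF1 chr17:58007197-58007496 (-), CLTC chr17:59619645-59619944 (+), PCDH7 chr4:30720119-30720418 (+) and CXCL8 chr4:73740319-73740618 (+). Capitals mark the GC box GGGCGG and the TATA box TATAAA, each searched on both strands, where adjoining matches may overlap.
EIF3B: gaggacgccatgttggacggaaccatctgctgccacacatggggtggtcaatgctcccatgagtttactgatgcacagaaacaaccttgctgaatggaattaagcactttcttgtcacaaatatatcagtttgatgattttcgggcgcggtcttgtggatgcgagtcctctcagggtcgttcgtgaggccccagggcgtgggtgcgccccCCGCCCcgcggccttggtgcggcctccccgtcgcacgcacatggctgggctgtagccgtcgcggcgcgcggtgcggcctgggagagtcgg
PPIA: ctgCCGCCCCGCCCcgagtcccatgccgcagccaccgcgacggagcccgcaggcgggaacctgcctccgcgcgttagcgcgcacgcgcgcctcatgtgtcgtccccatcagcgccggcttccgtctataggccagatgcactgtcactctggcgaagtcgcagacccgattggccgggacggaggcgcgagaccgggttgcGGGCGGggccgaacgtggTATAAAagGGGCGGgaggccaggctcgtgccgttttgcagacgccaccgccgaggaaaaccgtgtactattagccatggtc
SRSF1: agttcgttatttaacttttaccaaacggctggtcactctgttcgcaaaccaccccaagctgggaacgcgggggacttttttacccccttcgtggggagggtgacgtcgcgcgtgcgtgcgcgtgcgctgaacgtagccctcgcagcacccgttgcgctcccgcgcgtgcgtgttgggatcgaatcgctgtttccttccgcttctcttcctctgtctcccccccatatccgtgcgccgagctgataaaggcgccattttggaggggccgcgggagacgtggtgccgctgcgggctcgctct
CLTC: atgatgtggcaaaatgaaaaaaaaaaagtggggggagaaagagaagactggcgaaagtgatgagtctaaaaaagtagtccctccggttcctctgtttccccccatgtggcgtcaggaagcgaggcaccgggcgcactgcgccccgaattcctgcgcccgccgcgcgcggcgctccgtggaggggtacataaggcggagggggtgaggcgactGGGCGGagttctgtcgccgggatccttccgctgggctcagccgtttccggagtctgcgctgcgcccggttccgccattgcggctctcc
PCDH7: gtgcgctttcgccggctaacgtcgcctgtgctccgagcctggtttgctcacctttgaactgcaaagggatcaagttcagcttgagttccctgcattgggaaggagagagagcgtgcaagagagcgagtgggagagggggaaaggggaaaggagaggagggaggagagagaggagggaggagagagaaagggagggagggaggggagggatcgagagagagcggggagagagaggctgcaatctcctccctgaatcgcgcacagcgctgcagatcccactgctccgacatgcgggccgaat
CXCL8: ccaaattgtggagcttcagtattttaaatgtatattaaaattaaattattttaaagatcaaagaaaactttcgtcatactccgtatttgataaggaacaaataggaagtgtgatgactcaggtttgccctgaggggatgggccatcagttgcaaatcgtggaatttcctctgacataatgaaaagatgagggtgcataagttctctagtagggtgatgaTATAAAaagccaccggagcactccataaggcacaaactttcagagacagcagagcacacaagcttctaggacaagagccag
The GC box was found in 44.6% of the 27305 promoters of the same length and the TATA box in 11.95% of them. PPIA held 4 GC boxes and 1 TATA box, EIF3B and CLTC 1 GC box each, CXCL8 1 TATA box, and SRSF1 and PCDH7 neither. GC content was 68.7% in PPIA, 62.3% in CLTC, 62% in SRSF1, 61% in EIF3B, 60.3% in PCDH7 and 39.3% in CXCL8, against a median of 58.3% over all promoters. A match is a description of these letters and not a bound site.

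The widest EP400 peaks lay mostly at gene ends, 5 of the 6 widest among them. The widest of the dense windows was 1300 bp, at chr7:2393551-2394850 on hg19, the build of the peak lists, and covered the start of EIF3B, a subunit of a translation initiation factor. PPIA, which encodes the prolyl isomerase cyclophilin A, began 16 bp before an 800-bp peak. Peaks of 750 bp covered the starts of SRSF1, a splicing factor, and CLTC, the clathrin heavy chain. Another, of 1050 bp at chr16:3070651-3071700, lay at ends of HCFC1R1, THOC6 and TNFRSF12A. One of 750 bp at chr16:2802701-2803450 lay at no end of a locus. A gene that starts inside a locus shared by several genes would be missed there. All 6 of the widest peaks overlapped mock peaks of Pol II, MED26 and H3K18ac, and none overlapped H3K4me1. Over all EP400 peaks of dense windows, 18.6% lay at gene ends. The shares that overlapped a mock peak were 15.5% for Pol II, 14.6% for MED26, 21.2% for H3K18ac and 11.02% for H3K4me1. A wider peak spans more bases and 6 peaks are few, so nothing is read from these counts. Wide peaks were few: 0.560% of the EP400 peaks in dense windows were 500 bp or wider (0.359 to 0.873%), against 0.621% elsewhere. The median width was 50 bp in both, the step of the EP400 list.

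Dense windows gathered on a few chromosomes. Chromosomes 7 and 14 held 12 each, chromosome 8 held 10, chromosome 4 held 9 and chromosome 15 held 8, which makes 51 windows with 2269 EP400 peaks on these 5. No window was dense on chromosomes 2, 5, 19, 20, X and Y. On chromosome 18 the dense windows held 60.2% of the chromosome's EP400 peaks, on chromosome 14 57.9% and on chromosome 7 45.0%, against 3.25% on chromosome 1. The 79 windows formed 46 runs of consecutive windows, of which 26 were single windows. The longest run was 6 windows at chr14:60000001-66000000, with 306 EP400 peaks and genes such as HIF1A and MAX. Next came the 4 windows of chr8:128000001-132000000 with 183 peaks around MYC and PVT1, and the 4 windows at the start of chromosome 18 with 223. The median dense window held 40 EP400 starts (range 30 to 92), the 76 non-dense windows next to one held 18 and all windows 3. No gap separated the dense windows from the rest: 13 windows had 30 to 32 starts and 24 had 27 to 29. Just inside and just outside the threshold the windows had medians of 42 and 45 H3.3 peaks after EP400 siRNA, 48 and 35.5 H3K4me1 peaks, and 8 and 7 loci. Every list but H3.3 after EP400 siRNA had a higher median just inside. Mock Pol II had 15 and 10, mock H3.3 62 and 44.5, and mock H2AZ 38 and 35.5.

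**Figure D1:**
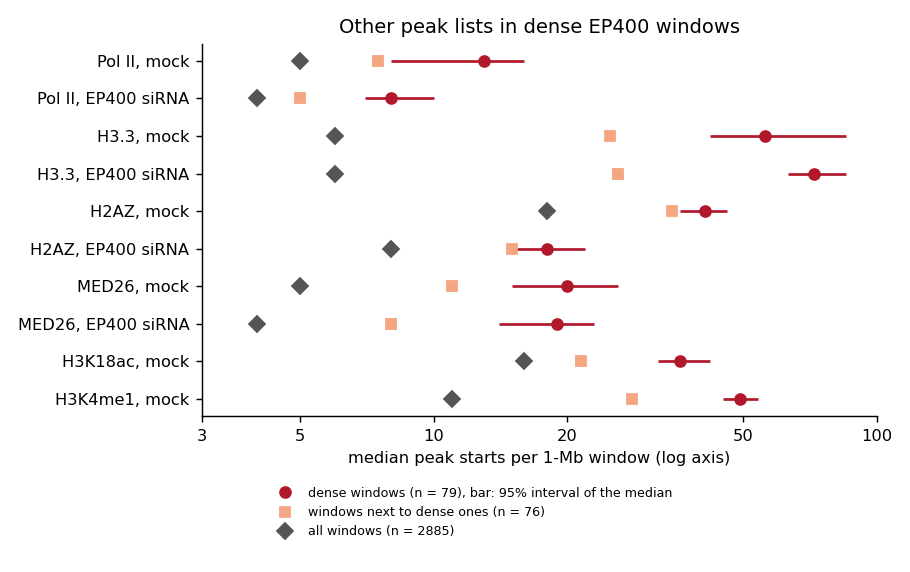
Median peak starts per 1-Mb window of the 10 other lists (log axis) in the 79 dense windows (circles, bars show the 95% interval of the median over windows), the 76 windows next to them (squares) and all 2885 windows (diamonds). In each list the dense windows lie above all windows, from 8 against 4 for Pol II after EP400 siRNA to 72 against 6 for H3.3 after EP400 siRNA.

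Dense windows held more peaks of each other list than windows did in general, to very different extents. H3.3 stood highest: after EP400 siRNA the dense windows had a median of 72 H3.3 peaks (95% interval 63 to 85, range 13 to 198), against 6 over all windows. At least 2 times the median of all windows was reached in 79 of 79 dense windows, against 35.0% of all windows. In mock cells the H3.3 median was 56 against 6, with 69 of 79 windows at 2 times or more (background 39.3%). Over individual windows mock H3.3 ranged from 1 to 415 peaks, so a few dense windows had almost none in mock cells.

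The enhancer mark H3K4me1 and MED26 came next. H3K4me1 had a median of 49 peaks per dense window against 11, and 73 of 79 windows were at 2 times or more (background 30.5%). MED26 had 20 against 5 in mock cells (62 windows, background 30.4%) and 19 against 4 after EP400 siRNA (66 windows, background 34.8%). The lists of Pol II, H2AZ and H3K18ac differed least. Mock Pol II had a median of 13 against 5 (47 windows, background 28.5%), and 8 against 4 after EP400 siRNA (42 windows, background 27.3%). H2AZ had 41 against 18 in mock cells (49 windows, background 12.0%) and 18 against 8 after EP400 siRNA (47 windows, background 15.6%). H3K18ac had 36 against 16 (50 windows, background 20.3%). In 18 dense windows all 10 lists were at 2 times or more, against 3.15% of all windows. The plot of medians by list shows that the windows next to dense ones lay between both groups, from 5 Pol II peaks after EP400 siRNA to 34.5 mock H2AZ peaks.

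As shares, the dense windows held 14.96% of all H3.3 peaks after EP400 siRNA, 9.79% of mock H3.3, 8.48% of H3K4me1, 7.40% of mock Pol II, 6.11% of mock H2AZ and 5.48% of H3K18ac peaks. They held 3.85% of gene loci, with a median of 7 loci per dense window and 5 per window in general, and 24 of 79 dense windows had at least 2 times the general median (background 24.1%). The number of loci alone thus set dense windows apart much less than the peak lists did. Loci are not genes: chr1:145000001-146000000 counts as 1 locus, and 21 of the genes analysed below lie there.

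At a like number of loci the lists differed in order too. Among windows with 0 to 2 loci the 8 dense ones had a median of 69.5 H3.3 peaks after EP400 siRNA and the 808 others 1. With 6 to 9 loci the medians were 86.5 in 26 dense windows and 9 in 628 others, and with 20 or more 51 in 10 dense windows and 18 in 185 others. H3K4me1 had 54 against 3 in the windows with the fewest loci and 46 against 30 in those with the most. Pol II and H3K18ac varied by class. Pol II after EP400 siRNA had 3 against 1 at 0 to 2 loci, 3 in both groups at 3 to 5, and 58.5 against 27 at 20 or more. H3K18ac had 38 against 4 at 0 to 2 loci, 27 against 13 at 3 to 5, and 45.5 against 41 at 20 or more.

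**Figure D2:**
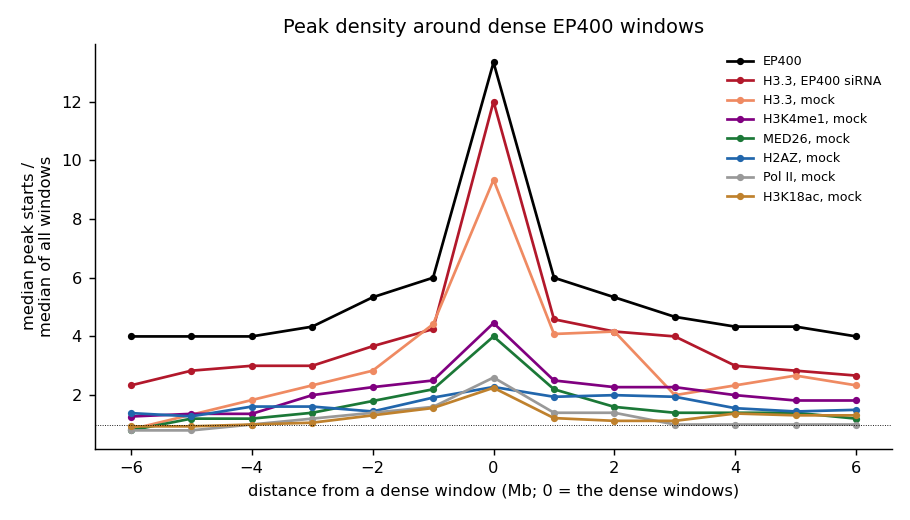
Median peak starts per window, divided by the median of all windows, at distances of up to 6 Mb from a dense window; position 0 holds the 79 dense windows and the other positions hold non-dense windows. EP400 (13.3 at 0, by the rule) and H3.3 after EP400 siRNA (12) stand out at 0, and EP400 is still at 4 at a distance of 6 Mb on either side.

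Away from the dense windows the lists declined at different rates. H3.3 after EP400 siRNA was 4.25 and 4.58 times the general median in the windows 1 Mb before and after, and 2.33 and 2.67 times at 6 Mb. Mock H3K4me1 was 2.5 times the median at 1 Mb on both sides, and 1.27 and 1.82 times at 6 Mb. The neighbourhood of a dense window was therefore above the general level in these 2 lists, as the plot by distance shows. H2AZ was above it too, at 1.39 and 1.5 times the general median 6 Mb before and after in mock cells. After EP400 siRNA it was 1.5 times on both sides. The other mock lists were below the general median at 6 Mb before and at or above it at 6 Mb after. Mock Pol II was 0.8 and 1 times the general median, mock MED26 0.8 and 1.2, H3K18ac 0.94 and 1.31, and mock H3.3 0.83 and 2.33. EP400 itself stayed at 12 starts per window at 6 Mb, against 3 in general.

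**Figure D3:**
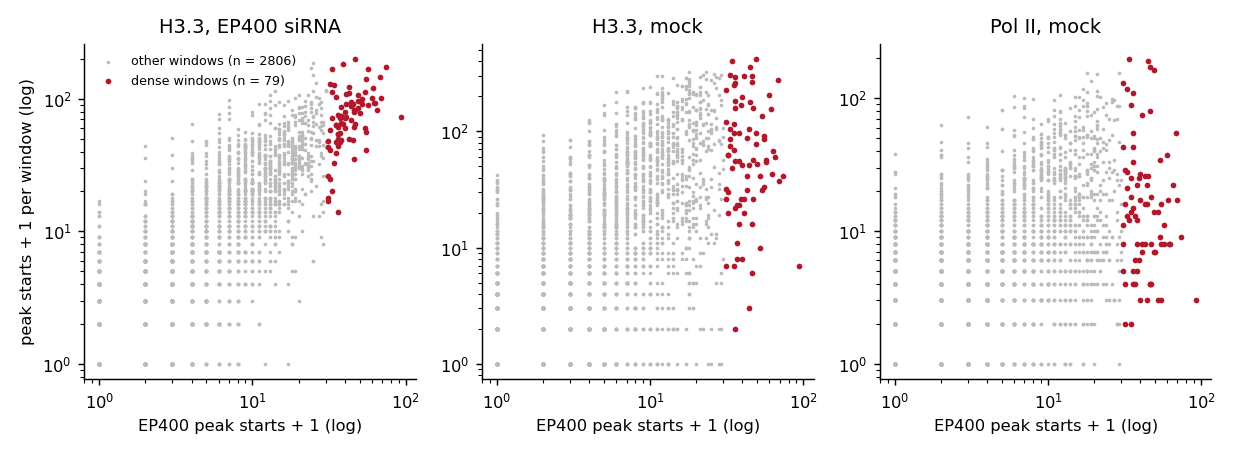
Peak starts plus 1 per 1-Mb window (log axes) for H3.3 after EP400 siRNA, mock H3.3 and mock Pol II against EP400, with dense windows in red (n = 79) and the other 2806 windows in grey. Among dense windows, H3.3 after EP400 siRNA runs from 13 to 198 starts, while mock Pol II runs from 1 to 195.

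Over all 2885 windows EP400 starts ran most closely with H3.3 after EP400 siRNA (Spearman's rho 0.81), then with H3K4me1 (0.72), mock H2AZ (0.70), mock H3.3 (0.68), MED26 (0.66 in both conditions), H2AZ after EP400 siRNA (0.65) and H3K18ac (0.62). Pol II was at 0.56 in mock cells and 0.54 after EP400 siRNA, and gene loci were at 0.47. The points share the same genome and windows of different gene number, so these are descriptions. Within the 79 dense windows rho was 0.51 for H3.3 after EP400 siRNA and between -0.15 and 0.20 for gene loci and the other 9 lists. The rule cuts EP400 starts to between 30 and 92 in this group, a narrow range that can itself lower rho, so nothing is read from the difference.

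Single windows differed widely. The window with the most EP400 starts, 92 at chr4:30000001-31000000, held 1 locus, that of PCDH7, a protocadherin of cell adhesion. Of its EP400 peaks none lay at a gene end, and 31 lay within the whole PCDH7 locus, which runs on into the next window. Pol II had 2 peaks there in mock cells and 3 in siRNA cells. Its H3.3 peaks numbered 6 in the mock list and 72 in the siRNA list. For H2AZ these counts were 186 and 71, the highest mock count of any dense window. At chr18:1000001-2000000 there were 43 EP400 peaks, 2 Pol II and 2 H3.3 peaks in mock cells, and 68 H3.3 peaks after EP400 siRNA. The window chr7:46000001-47000000 held 45 EP400 peaks and no locus middle.

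Gene-rich dense windows looked otherwise. At chr17:79000001-80000000, with 40 loci, 33 EP400 peaks stood beside 195 mock Pol II peaks, and H3.3 had 404 peaks in the mock list and 32 in the siRNA list. At chr11:65000001-66000000, with 39 loci, 82.9% of the 35 EP400 peaks lay at gene ends. At chr6:27000001-29000000, which holds part of the large histone gene cluster, 66 EP400 peaks shared 2 windows with 54 loci, and the mock H2AZ counts were 92 and 102. Along chr4:72000001-75000000, which includes the CXC chemokine genes, 125 EP400 peaks lay in 3 windows with 2 or 3 mock Pol II peaks each.

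Copy number was not measured in these lists. U2OS carries gains and losses of chromosome segments, and whether the dense windows are gained, and what part a gain has in any density given here, was not tested. Several measurements stand beside that question. The ratio of the dense-window median to the general median ranged from 2 for Pol II to 12 for H3.3, both after EP400 siRNA. Of 18 genes recalled as lying in recurrent osteosarcoma gains, MYC and PTK2 lay in dense windows, as did 3.98% of all 24174 genes with an estimate. Of 9 found genes of recurrent losses none did. The windows of the gain genes had a median of 8.5 EP400 starts, those of the loss genes 4 and those of all genes 6. Lists this short allow no comparison with that background. Mock RNA levels are given below.

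One by one, the EP400 peaks of dense windows were met less often by other peaks than EP400 peaks elsewhere. An overlap of at least 1 bp with any of the 6 mock lists was found for 35.2% of them (33.6 to 36.8%), against 44.8% of the 14654 others (44.0 to 45.6%). In 62 of the 79 windows most EP400 peaks overlapped no mock peak, and this share ran from 3.03% at chr17:79000001-80000000 to 95.3% at chr18:1000001-2000000. Gene ends, taken as 2 kb on either side of both ends of a locus, held 18.6% of the dense-window peaks (17.3 to 19.9%) and 31.0% of the others. Enhancers, stretches with both H3K4me1 and H3K18ac away from gene ends, held 6.01% (5.26 to 6.86%) and 3.87%. The remaining 75.4% lay at neither, against 65.1%. A locus can hold several genes, and starts inside it are not counted as gene ends. At chr1:145000001-146000000, with 1 locus, 0 of the 42 EP400 peaks were counted at a gene end. The gene-end shares may thus be too low and the shares at neither too high. Placed by position the difference shrank: at gene ends 78.9% of dense-window peaks overlapped a mock peak and 81.6% of the others, and away from them 25.2% and 28.2%.

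By list, the 2 lists found more often at dense-window peaks beyond their intervals were H3K4me1, at 11.02% (10.01 to 12.1%) against 6.56%, and H3.3 after EP400 siRNA, at 9.07% (8.15 to 10.1%) against 2.61%. Mock H3.3 was alike, at 10.96% and 10.3%. Mock Pol II met 15.5% against 27.8%, mock MED26 14.6% against 23.9%, H3K18ac 21.2% against 29.5%, and mock H2AZ 14.0% against 18.2%. These intervals cover counting error only, and peaks of 1 window share their surroundings. Neighbouring EP400 starts were close, as the rule implies: 47.5% had the next within 10 kb, against 21.3% elsewhere, and the median spacing was 10800 bp, down to 2250 bp at chr1:145000001-146000000.

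After EP400 siRNA the total peak numbers in dense windows followed those of the genome for 3 of the 4 antibodies. Pol II went from 2275 to 1487 peaks, a ratio of 0.654 (95% interval 0.612 to 0.698 from counting error) against 0.682 over all windows. H2AZ went from 3551 to 1666 peaks (0.469 against 0.457), with fewer in each of the 79 windows. MED26 went from 2086 to 1923 (0.922 against 0.902). H3.3 differed: 7817 mock peaks and 6198 after EP400 siRNA gave 0.793 (0.767 to 0.820), against 0.489 in the windows that were not dense and 0.612 in those next to dense ones. H3.3 peaks were more numerous after EP400 siRNA in 49 of 79 dense windows (62.0%), against 38.2% of all windows. The corresponding counts were 9 windows for Pol II (11.4%, background 13.6%), 0 for H2AZ (background 1.49%) and 26 for MED26 (32.9%, background 23.7%). Windows with equal peak numbers count here as not higher, in the background too. For H3.3, 49 dense windows were higher and 29 lower, against 1103 and 1312 of all windows. For MED26, 26 were higher and 47 lower, against 685 and 1295, so fewer peaks was the more common direction in both. List lengths move with depth and enrichment, which are unknown, so these are ratios of listed peaks.

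The H3.3 ratio varied with the number of loci in dense and in other windows. With 0 to 2 loci it was 2.26 in dense windows and 1.40 elsewhere, with 3 to 5 loci 1.01 and 0.968, and with 6 to 9 loci 1.38 and 0.802. With 10 to 19 loci it was 0.644 and 0.402, and with 20 or more 0.220 and 0.188. It was thus higher in the dense windows in each of the 5 classes, by little at 3 to 5 loci and at 20 or more. No interval was computed by class. Other windows fell from class to class, while dense windows were lower at 3 to 5 loci than at 6 to 9. Few H3.3 peaks kept their place: 7.85% of the mock peaks in dense windows overlapped a peak after EP400 siRNA (7.28 to 8.47%; background 5.01%). The shares were 38.4% for Pol II (background 48.2%), 31.3% for H2AZ (background 28.1%) and 46.3% for MED26 (background 49.0%).

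Genes in dense windows were more often expressed. Of 961 genes with an estimate, 64.3% had a mean FPKM (fragments scaled for transcript length and sequencing yield) of 1 or more over both libraries (61.2 to 67.3%), against 47.5% elsewhere. These 618 genes had a median mock FPKM of 12.6, against 7.46 in other windows. Gene-rich windows weigh heavily here, since 241 of the 618 genes came from the 10 dense windows with 20 or more loci. In these the median was 40.03 FPKM (32.9 to 53.5), against 21.3 elsewhere. With 3 to 5 loci it was 7.54 (4.93 to 10.3) against 3.13, with 6 to 9 loci 5.83 against 3.67, and with 10 to 19 loci 9.97 (6.52 to 15.6) against 7.79 (7.33 to 8.46), where the intervals overlap. With 0 to 2 loci it was 4.61 against 2.48, but 21 of these 27 genes share the window chr1:145000001-146000000, and the other 6 had a median of 2.22. In a bulk culture, RNA made by fewer cells and less RNA per cell cannot be told apart.

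**Figure D4:**
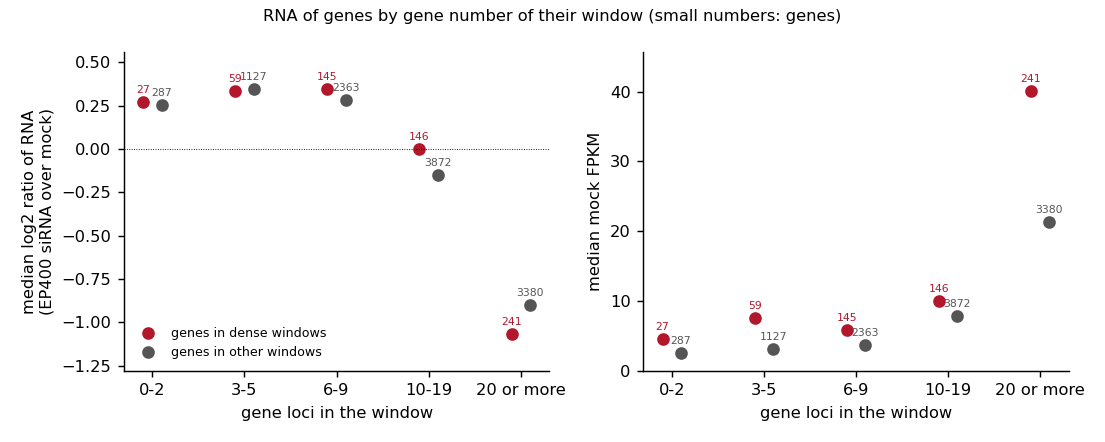
Median log2 ratio of RNA (EP400 siRNA over mock, pseudocount 1, left) and median mock FPKM (right) of genes in dense windows (red) and other windows (grey), by the number of gene loci in the window; small numbers give the genes. From the fewest to the most loci the ratio goes from 0.27 to -1.07 in dense windows and from 0.26 to -0.90 elsewhere. At 20 or more loci the mock FPKM is 40.03 against 21.3. At 0 to 2 loci 21 of the 27 genes in dense windows come from 1 window, and the other 6 have a median ratio of 0.70.

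After EP400 siRNA the RNA of genes in dense windows moved with the number of loci in the window, as it did elsewhere. The log2 ratio of siRNA to mock FPKM, with a pseudocount of 1 added to both, had a median of -0.32 over the 618 genes (-0.42 to -0.20), against -0.20 over all 11647 genes. Rescaling both libraries to equal sums turned the sign of both medians, to 0.39 and 0.48. By the deposited FPKM 39 genes were up by 2-fold or more (6.31%, background 6.10%) and 185 at least 2-fold lower (29.9%, background 22.9%). By the rescaled values the counts were 197 higher (background 31.7%) and 37 lower (background 5.93%). The share of higher genes was thus near the background on both scales.

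By number of loci the medians in dense and other windows lay side by side from 3 to 19 loci. They were 0.33 and 0.35 at 3 to 5, 0.35 and 0.28 at 6 to 9, and -0.00 and -0.15 at 10 to 19. At 0 to 2 loci the medians were 0.27 and 0.26, but 21 of the 27 genes in dense windows share chr1:145000001-146000000. The other 6 had a median of 0.70. At 20 or more loci the medians in dense and other windows were -1.07 (-1.15 to -0.95) and -0.90 (-0.92 to -0.87). Rescaled to equal sums, the medians of this last class were -0.35 and -0.23, and those of the other classes were above 0 in both. Without the 10 windows of 20 or more loci the median over dense windows turned to 0.25 and the genes at least 2-fold lower went from 185 to 55. Of the 46 dense windows with 5 or more such genes, 22 had a median above 0 and 24 below.

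**Figure D5:**
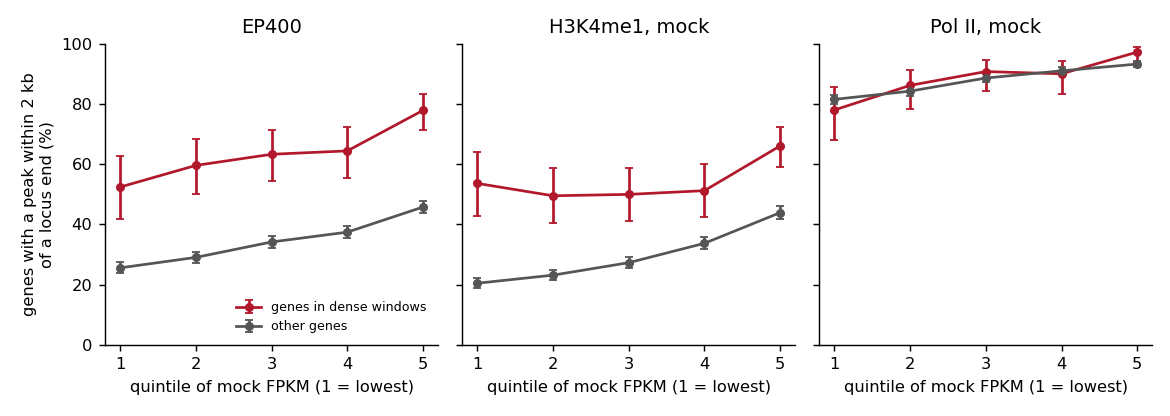
Share of genes with a peak within 2 kb of a locus end, by quintile of mock FPKM (1 lowest), for EP400, H3K4me1 and Pol II, in dense windows (red) and elsewhere (grey); bars are 95% Wilson intervals. EP400 goes from 52.4% to 78.0% in dense windows and from 25.6% to 45.8% elsewhere, while the Pol II intervals of both groups overlap in each quintile.

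EP400 lay at an end of 65.9% of these genes in dense windows (62.0 to 69.5%; background 36.0%), against 34.3% of the other genes. More EP400 peaks at gene ends are part of what the rule selects, so nothing is read from that share. Among the marks that the rule did not use, H3K4me1 differed most. H3K4me1 was at an end of 55.5% of genes in dense windows (51.6 to 59.4%; background 31.0%) and 29.6% of the others, mock H3.3 at 83.0% (background 70.2%), H3K18ac at 84.8% (background 74.4%) and mock MED26 at 88.8% (background 80.6%). Mock H2AZ was at 82.2% (background 77.0%) and mock Pol II at 90.1% (87.5 to 92.2%; background 87.9%). The plot by quintile sets genes of like RNA level side by side: the intervals for H3K4me1 stayed apart in each quintile, and those for Pol II overlapped in each.

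Named genes put values to this. In the 15 windows with the most EP400 starts, the genes with the most RNA had many different roles. NDC80, of the kinetochore, had 8.87 FPKM in mock cells and 12.5 after EP400 siRNA. ACTN1, an actin crosslinker, had 262 and 266. MYL12B, a myosin light chain with the near-identical neighbour MYL12A, had 254 and 354. AIMP2, of the tRNA synthetase complex, had 216 and 186, a log2 ratio of -0.22 that turns to 0.55 on rescaling. Of the 15 genes, PCDH7 and LINC03033 were at least 2-fold higher after EP400 siRNA (background 6.10%). TPM1 and RAB15 were at least 2-fold lower (background 22.9%). Rescaled to equal sums, neither TPM1 nor RAB15 stayed at least 2-fold lower (background 5.93%). NDC80, MNAT1, MYL12B, VTI1B, PAICS, PLEK2 and PVT1 then joined the genes at least 2-fold higher (background 31.7%), so these counts turn with the scale. The confidence limits, summed over the deposited rows of each gene, overlapped between the libraries for all 15. Summed limits can be wider than those of a single estimate for the gene. TPM1, a tropomyosin, had 108 and 44.8 (log2 ratio -1.25, or -0.49 rescaled), and RAB15, a small GTPase whose locus is shared with MAX and other genes, 66.5 and 19.4 (log2 ratio -1.73, or -0.99 rescaled).

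PAICS, of purine synthesis, had 23.2 FPKM in mock cells and 42.3 after EP400 siRNA, and MNAT1, which assembles the CDK-activating kinase, 8.08 and 11.8. PLEK2 had 46.5 and 66.9, the SNARE VTI1B 67.9 and 81.3, and the non-coding LINC03033 10.3 and 34.4. DERL1, of protein export from the endoplasmic reticulum, had 40.1 and 40.7. PVT1, the non-coding RNA next to MYC, had 14.8 and 18.8. PCDH7, in the densest window, had 3.05 (summed limits 0.171 to 6.501) and 14.5 (0.233 to 31.8), a log2 ratio of 1.94 in a window with almost no Pol II peaks.

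The 2 highest ratios were those of the chemokine genes CXCL8 and CXCL3. CXCL8, CXCL3, TNFRSF11B and TAGLN3 were below 1 FPKM in mock cells and passed the filter on mean FPKM only through the siRNA library, so a high ratio was a condition of their being ranked, and its size depends on the pseudocount. CXCL8, which attracts neutrophils, had 0.435 FPKM in mock cells (summed limits 0.0316 to 0.839) and 23.7 after EP400 siRNA (2.89 to 44.5), a log2 ratio of 4.10. CXCL3, in the same window of 51 EP400 starts, had 0.543 and 12.5 (log2 ratio 3.13). Neither had an EP400 peak at its ends or in its locus. TNFRSF11B, the decoy receptor osteoprotegerin, had 0.490 and 5.71 (log2 ratio 2.17), and TAGLN3 0.258 and 6.03. The summed limits did not overlap for CXCL8, CXCL3 and TNFRSF11B, and overlapped for the other 5 of the 8 highest. Of those, CASC8, a non-coding RNA near MYC, had 7.57 and 36.5, and PDE4DIP 2.26 and 19.3 at a locus shared with 33 other genes. DLGAP1-AS2 had 2.23 and 13.0, and its reads may not be separate from those of DLGAP1, since counting by strand is not given in the sources used here. All 8 stayed higher after rescaling, but rescaling raised the median of all genes from -0.20 to 0.48. Genes picked as the highest could not turn with such a shift, so this is no check of them.

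The 8 lowest ratios all stood in dense windows of chromosomes 7, 16 and 17, which held between 12 and 51 loci each. WFDC21P, a pseudogene transcript, had 55.2 FPKM in mock cells (7.05 to 103) and 2.61 after EP400 siRNA (0.192 to 5.03), a log2 ratio of -3.96. KREMEN2, a receptor in Wnt signalling, had 41.2 and 3.77, with 5 EP400 peaks at its ends. NOTUM, an enzyme that inactivates Wnt proteins, had 18.9 and 2.93, with none. RAB26 had 14.0 and 1.70, SYNGR3, a synaptic vesicle protein, 41.8 and 5.49, and SLC29A4, a monoamine transporter, 70.5 and 9.41. GPER1, an oestrogen receptor of the membrane, had 19.3 and 1.41. THOC6, of the mRNA export complex THO, had 175 and 32.05 and shares its locus with HCFC1R1. Only for WFDC21P did the summed limits not overlap. All 8 stayed lower after rescaling, from -3.46 for WFDC21P to -1.67 for THOC6. They were picked as the lowest, and the general shift on rescaling is smaller than their ratios, so this is no check of them either.

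Of the gene lists, MYC and PTK2 from the osteosarcoma gains and KAT5 from the 18 genes of the TIP60-EP400 complex lay in dense windows. MYC, the growth-promoting transcription factor, had 64.4 FPKM in mock cells (3.85 to 125) and 164 after EP400 siRNA (0 to 328), a log2 ratio of 1.33, with 3 EP400 peaks at its ends. Its window held 35 EP400 starts, 14 mock and 4 siRNA Pol II peaks, and 101 H3K4me1 peaks. PTK2, the focal adhesion kinase, had 10.6 and 12.3, with 28 EP400 peaks in its locus. KAT5 had 25.2 and 22.2 with no EP400 peak at its ends, and its log2 ratio of -0.17 turns to 0.58 on rescaling. Of the 16 complex genes that passed the filter on mean FPKM, EP400, DMAP1, MRGBP and RUVBL2 were at least 2-fold lower on the log2 scale with pseudocount 1 (background 22.9%) and 0 at least 2-fold higher (background 6.10%). On rescaling EP400 alone stayed at least 2-fold lower (background 5.93%) and 6 were at least 2-fold higher (background 31.7%), so these counts turn with the scale.

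In the series as a whole, EP400 RNA had 10.04 FPKM in mock cells and 2.28 after EP400 siRNA, a log2 ratio of -1.75 (-1.24 rescaled), and its own window, with 12 EP400 starts, was not dense. Peak lists held between 18048 and 79838 peaks and carry no read depth. Of 12 genes for osteoblasts and mesenchyme 9 had a mock FPKM of 1 or more, among them COL1A1 at 376, while COL1A2 was at 0.0114 and IBSP and TWIST1 were listed at 0. Of 8 epithelial genes 4 had 1 or more, led by KRT18 and KRT8, and of 6 blood genes none. No marker gene of these lists lay in a dense window.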

How the data were processed

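The authors deposited ChIP peaks as 1 list of positions per antibody and condition, giving only start and end, on a grid of 50 bp (EP400) or 100 bp (the other 10 lists). The peak caller is not given in the sources used here. RNA was deposited by the authors as FPKM with confidence limits for 48669 RefSeq rows, per the file headers. Bowtie 0.12.9, TopHat2 2.0.8, Cuffdiff 2.0.2 and hg19 are named in the submitters' processing notes. No depth came with either kind of file, so no count model was fitted, and every FPKM carries an unknown counting error. With 1 library per condition no test was run and no value has a replicate check.

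Peak starts were counted in fixed 1-Mb windows, and a gene lay in the window of its locus middle. Genes were entries of 1 symbol at 1 locus, without rows under 200 nt and without genes lacking an estimate (321). The FPKM of a gene and its confidence limits were each summed over its rows. A mean FPKM of 1 or more was required, and log2 ratios used a pseudocount of 1. The TPM alternative rescaled both libraries to equal sums and moved the median of all genes from -0.20 to 0.48. Shares have Wilson intervals and medians order-statistic intervals (95%), which cover counting error only. Named genes were EP400, the gene with the highest mean FPKM in each of the 15 densest windows, the 8 highest and 8 lowest ratios, and list members in dense windows. HIF1A, MAX and the genes of the widest peaks were added after their values were seen. A gene that this rule names is not reported here. The dense windows, the gene lists and the rule were chosen with earlier results of these data known. Scripts used Python 3.11.15, numpy 2.4.6, pandas 2.3.3, scipy 1.17.1 and matplotlib 3.10.9, and were tested on simulated data. Promoters came from RefSeq (GRCh38.p14), and no coordinates were converted between builds.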

Additional observations from a re-analysis of the deposited data

How the results depend on the processing

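With 1 library per condition the depth and the spread between replicates are unknown, and each value below is a description. No paired analysis was possible because the 3 EP400 immunoprecipitations form 1 list and their inputs were not analysed here. Of 22 alternatives, 2 were chosen after seeing the data (EP400 peaks of 100 bp or wider, and leaving out the dense windows with 20 or more loci). The planned limit on width kept every peak, since the median width is 50 bp. All 10 other lists stayed above the general median in each alternative, from 10.7 to 20.6 times for H3.3 after EP400 siRNA and from 1.60 to 3.80 times for mock Pol II.

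A threshold of 25 gave 119 dense windows with 24.8% of EP400 peaks, 20.5% of them at gene ends, a median log2 ratio of RNA of -0.52 and 334 genes at least 2-fold lower. A threshold of 40 gave 40 windows with 11.4% of EP400 peaks, 33.2% of which overlapped a mock peak and 15.6% lay at gene ends, a median of -0.0087, and 21 genes higher and 77 lower. Counting EP400 peaks within 1 kb once gave shares of 14.7%, 29.2% (mock peak) and 11.8% (gene end), 74 genes lower, and a median that turned to 0.14. With EP400 peaks of 100 bp or wider the shares were 24.01%, 50% and 30.5%, the median was -0.67 and 394 genes were lower. Without the dense windows of 20 or more loci they were 16.9%, 30.6% and 14.1%, with 55 genes lower and a median that turned to 0.25. Windows shifted by 500 kb held 19.7% of EP400 peaks, 32.9% of which overlapped a mock peak, and without chromosome 7 the share was 15.9%. A mock peak within 1 kb was found for 53.0%. Gene ends of 1 kb and 5 kb held 13.7% and 26.8%.

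The median log2 ratio of RNA was -0.65 at a mean FPKM of 5 or more and -0.021 with no filter. Median centring gave -0.12 with 69 genes higher, and a pseudocount of 0.1 gave 68 higher. Centring by local gene density gave -0.039, with 59 genes higher and 74 lower. Rescaling to equal sums turned the median to 0.39, with 197 genes higher and 37 lower. The number of antibodies whose peak ratio was above that of all windows was 3 of 4. It was 2 with shifted windows, and 1 with the threshold of 40, with merged EP400 peaks and without the windows of 20 or more loci. The H3.3 ratio of 0.793 was 0.917, 0.996 and 1.02 in these last 3 settings and 0.880 without chromosome 7. It was 0.725 at the threshold of 25 and 0.596 with EP400 peaks of 100 bp or wider. In covered bases it was 0.588, which cannot be set against the general ratios of peak numbers. By that measure the dense windows held 18.3% of all H3.3 bases after EP400 siRNA and 12.5% in mock cells. The cause of these changes was not tested.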

Other observations

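Widths of peaks differed between dense and other windows in ways that depend on the measure. H3K18ac peaks had a mean width of 980 bp in dense windows and 699 bp elsewhere, with medians of 500 and 400 bp. H3K4me1 peaks had means of 410 and 285 bp and mock H3.3 peaks means of 363 and 277 bp, but the medians were 200 bp in both groups for each. Mock Pol II peaks had means of 697 and 692 bp and medians of 300 and 500 bp. In covered bases the median dense window held 18500 bp of H3.3 peaks after EP400 siRNA, against 900 bp over all windows. For H3K4me1 it was 17500 against 2400 bp, for H3K18ac 31300 against 8500 bp and for mock H2AZ 13200 against 5000 bp.

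Single windows departed from the rest in how Pol II and H3.3 were listed in both conditions. At chr22:27000001-28000000, with 35 EP400 peaks and 4 loci, Pol II had 32 peaks in the mock list and 3 in the siRNA list, and H3.3 had 257 and 53. This window also had the most H3K4me1 peaks of any dense window, 121. At chr4:39000001-40000000 Pol II had 12 and 9 peaks, and H3.3 had 73 and 166.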
